A study of Mus musculus with 14 samples.

Results

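Eph receptors are the largest family of receptor tyrosine kinases, and the 10 genes described here (Epha3, Epha4, Epha5, Epha6, Epha7, Epha8, Ephb1, Ephb2, Ephb3 and Ephb6) were taken by name from the 43629 gene identifiers of the count tables. All 10 had enough counts to be tested. The RNA-seq libraries came from primary hippocampal cultures of wild-type C57BL6 mice. Pups were of postnatal day 0 to 1, and the cultures were grown for 14 days in vitro. Controls (CTRL, n = 4) were exposed to 0.1% DMSO for 15 h, and the treated cultures (PTX, n = 4) to 100 µM picrotoxin for 15 h. Picrotoxin blocks GABA-A receptors, the channels of fast inhibition, so that firing in the culture rises. The labels name no solvent for the treated cultures, and the series' design text calls the 4 cultures of each group biological replicates. A list of 4677 L3mbtl1 ChIP-seq peaks came from other material, the hippocampus of C57BL6/129 mice of postnatal day 7 to 8, with 3 wild-type and 3 L3mbtl1-/- samples. L3mbtl1 is a chromatin protein that reads methylated histone lysines. That list is 1 table for all 6 samples, so wild type and knockout were not compared.

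Eph receptors sit in the plasma membrane and are bound by ephrins on a neighbouring cell, so that both cells receive a signal. EphA receptors mainly bind the ephrin-A ligands, which are held by a lipid anchor, and EphB receptors mainly bind the ephrin-B ligands, which span the membrane. Epha4 binds ligands of both classes. In the hippocampus the family is known for axon guidance, for the shaping of dendritic spines and for synaptic plasticity, and its signals reach the cytoskeleton through regulators of small GTPases.

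The libraries held 14524916 to 19498189 gene counts, and 22513 to 23535 genes had a count. The first principal component of all tested genes separated CTRL from PTX (60.4% of the variance), and the second set the 2 libraries numbered 1, 1 of each group, apart from the other 6 (21%). Markers of neurons, astrocytes, oligodendrocyte lineage and meningeal fibroblasts were all present, and no marker of any list was at 0 counts in all libraries. Neuron markers summed to 4626 to 5878 CPM (gene counts scaled to a common library size after TMM, the unit used throughout) in CTRL and 5276 to 6761 in PTX. Of 10 neuron markers Map2, Snap25, Gad1 and Gad2 were higher and Rbfox3, Syt1, Slc17a7, Neurod6 and Camk2a lower, and Map2, the marker with the most counts, went from a mean of 2034 to 3018 CPM. Astrocyte markers summed to 6216 to 8378 CPM in CTRL and 4526 to 6255 in PTX, with Gfap, Aqp4, Slc1a2 and Aldoc lower and 0 of 8 higher. Over all tested genes 39.2% passed the same test. Meningeal fibroblast markers summed to 376.4 and 315.3 CPM in the libraries numbered 1 and to 105.8 to 216.6 CPM in the others, and 0 of 6 passed the test. Among them Ogn went the other way and was lowest in library 1 of each group (73.88 and 53.1 CPM). The libraries numbered 1 also had the lowest sums of oligodendrocyte lineage markers (208.4 and 224.3 CPM, others 326 to 477.6). The same held for microglia (11.62 and 16.72, others 36.4 to 92.71) and for endothelium and mural cells (41.39 and 44.68, others 66.25 to 81.34). The part of these markers in the receptor results was not tested.

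Picrotoxin changed 7 of the 10 receptors. Epha4, Epha6, Epha8, Ephb1 and Ephb6 fell, Epha5 and Ephb3 rose, and Epha3, Epha7 and Ephb2 did not pass the test (edgeR quasi-likelihood test, Benjamini-Hochberg adjusted p under 0.05 over 15959 genes). Over all tested genes 39.2% passed in either direction, 19% were higher and 20.1% lower. With the replicate number as a block the same number of receptors passed, beside 55.3% of all tested genes. The CPM of the groups did not overlap for 6 of the 10 receptors, beside 38% of all tested genes. The median log2 fold change of the receptors was -0.35, beside -0.03 for all tested genes, and their median absolute log2 fold change was 0.76, beside 0.33. Of the 10 receptors, 2 fell at least 2-fold, beside 5.13% of all tested genes, and 0 rose as much, beside 6.75%. These values describe the 10 listed genes and not all Eph receptors. Of the Eph receptors outside the 10, 3 were tested, with a median log2 fold change of 1.35. Among those, 2 rose at least 2-fold and 0 fell. Without both libraries numbered 1 the counts among the 10 were 3 higher, Epha3 being added, and 5 lower.

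**Figure D1:**
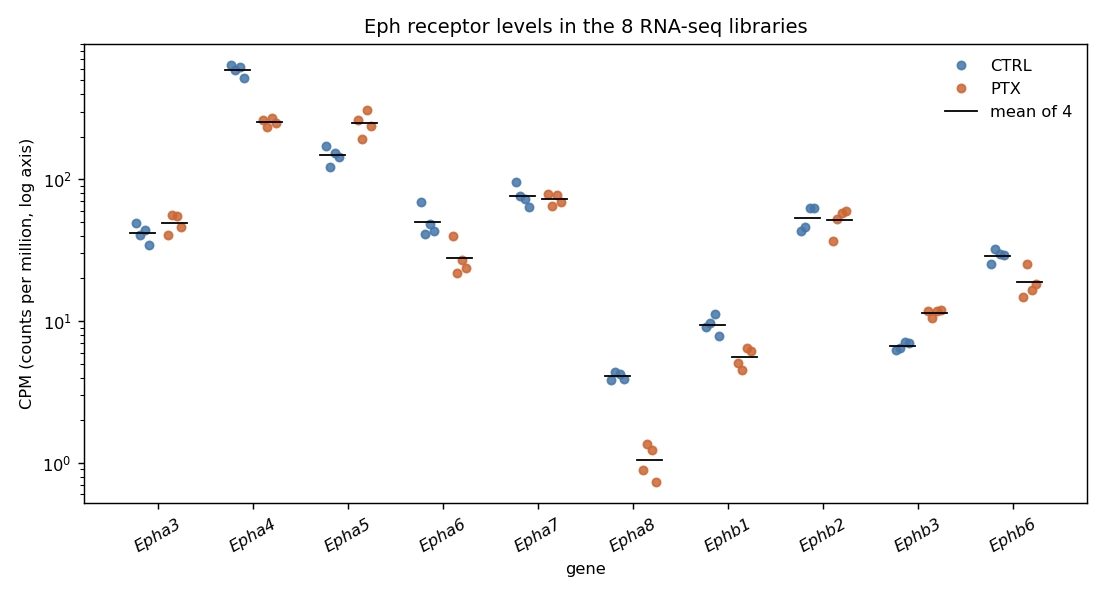
CPM of each of the 10 Eph receptors (log axis) in the 4 CTRL and 4 PTX libraries, with 1 point per library and a black bar at the mean of 4. The points of the groups lie apart for Epha4, Epha5, Epha6, Epha8, Ephb1 and Ephb3. For the other receptors they overlap. Heights are not divided by transcript length, so genes cannot be ranked against each other.

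Among the EphA genes of the 10 the falls were those of Epha4, Epha8 and Epha6. Epha4 (ENSMUSG00000026235, chr1:77367182-77515107, minus strand, GRCm38) is the receptor best known on hippocampal spines, where it meets ephrin-A3 of astrocytes. Its levels in the CTRL libraries 1 to 4 were 641.3, 592.7, 617 and 520.5 CPM. The PTX libraries had 263.4, 233.3, 270.1 and 249.3 CPM, so that the highest treated culture lay below every control. The mean went from 592.9 ± 52.2 to 254 ± 16.3 CPM (SD, n = 4), a log2 fold change of -1.22 (SE 0.09, 2.33-fold lower, edgeR adjusted p = 7.23e-06). In bulk RNA such as this, fewer cells of a type and less RNA per cell cannot be told apart.

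Epha8 (ENSMUSG00000028661, chr4:136929419-136956859, minus strand) binds ephrin-A ligands and guides axons of the midbrain. It had the fewest counts of the 10 receptors, 288 summed over CTRL and 67 over PTX, and the largest fold change. CTRL libraries had 3.83, 4.38, 4.24 and 3.92 CPM and PTX libraries 0.89, 1.36, 1.24 and 0.73 CPM. Again no treated culture reached a control. Mean levels went from 4.09 ± 0.26 to 1.05 ± 0.29 CPM (SD, n = 4), with a log2 fold change of -1.95 (SE 0.23, 3.87-fold lower, edgeR adjusted p = 0.000119).

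The start regions of Epha4 and Epha8, the receptors that fell at least 2-fold, are shown because neither holds an L3mbtl1 peak and they share no motif beyond CCAAT. Each runs from 250 bases before to 50 bases after a RefSeq transcription start (GRCm38.p6), on the gene's strand. Capitals mark matches, on either strand, to CCAAT, to TGACG (the core of the cyclic AMP response element) or to GCGNGGGCG (the site of Egr factors). The window of Epha4 is chr1:77515039-77515338, and that of Epha8 is chr4:136956767-136957066, both on the minus strand.
Epha4: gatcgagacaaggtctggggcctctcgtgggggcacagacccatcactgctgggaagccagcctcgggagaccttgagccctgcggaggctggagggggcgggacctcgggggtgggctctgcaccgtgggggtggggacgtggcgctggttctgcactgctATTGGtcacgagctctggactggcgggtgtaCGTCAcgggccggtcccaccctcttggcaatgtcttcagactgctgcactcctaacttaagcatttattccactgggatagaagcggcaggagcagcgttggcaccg
Epha8: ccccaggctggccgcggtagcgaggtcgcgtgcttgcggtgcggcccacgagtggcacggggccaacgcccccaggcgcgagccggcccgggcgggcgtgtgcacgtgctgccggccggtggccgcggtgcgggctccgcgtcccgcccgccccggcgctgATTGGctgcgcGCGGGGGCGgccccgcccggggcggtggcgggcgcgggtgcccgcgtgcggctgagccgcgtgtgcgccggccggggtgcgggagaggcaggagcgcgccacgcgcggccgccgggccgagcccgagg
The Epha8 window is 84.3% G and C with 56 CpG, and the Epha4 window 64% with 17 CpG. The median of all 32851 RefSeq promoters of this length was 52.7% with 7 CpG.

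Epha6 (ENSMUSG00000055540, chr16:59641433-60610911, minus strand), an ephrin-A receptor of axon mapping, had 68.7, 40.84, 48.04 and 43.19 CPM in CTRL and 39.83, 21.76, 27.16 and 23.6 CPM in PTX. Library 1 was the highest of each group, and the PTX library 1 lay just under the lowest control. Within same-numbered libraries the ratio of PTX to CTRL was 0.58, 0.533, 0.566 and 0.547. On average it went from 50.2 ± 12.7 to 28.1 ± 8.14 CPM (SD, n = 4), a log2 fold change of -0.84 (SE 0.22, 1.79-fold lower, edgeR adjusted p = 0.0115). In fits without a replicate block the call was lost without PTX replicate 3 (adjusted p = 0.0553) and without PTX replicate 4 (adjusted p = 0.057). With the replicate number as a block and all 8 libraries, the log2 fold change was -0.85 (edgeR adjusted p = 3.49e-07).

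Epha5 was the only one of the 6 EphA genes among the 10 that rose. Epha5 (ENSMUSG00000029245, chr5:84054761-84417818, minus strand) is a receptor of ephrin-A5 on forebrain neurons. CTRL libraries had 172.2, 122.2, 152.6 and 144.6 CPM and PTX libraries 260.3, 191.8, 308.6 and 237.8 CPM. All treated cultures lay above all controls, and each had 1.51 to 2.02 times the level of the control of its number. The mean went from 147.9 ± 20.7 to 249.6 ± 48.6 CPM (SD, n = 4), a log2 fold change of 0.76 (SE 0.15, 1.69-fold higher, edgeR adjusted p = 0.00289). Its start region, chr5:84417333-84417632 on the minus strand, holds no peak and none of the motifs searched, so no base is in capitals. It is printed beside those above because Epha5 moved the other way.
Epha5: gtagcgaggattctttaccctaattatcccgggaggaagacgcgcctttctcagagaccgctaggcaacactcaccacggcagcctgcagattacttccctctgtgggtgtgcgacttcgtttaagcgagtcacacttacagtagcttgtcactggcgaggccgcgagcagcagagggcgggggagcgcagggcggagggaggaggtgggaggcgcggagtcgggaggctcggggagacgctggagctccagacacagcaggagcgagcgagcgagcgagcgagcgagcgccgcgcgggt

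The remaining EphA genes of the 10, Epha3 and Epha7, did not pass the test. Epha3 (ENSMUSG00000052504, chr16:63543532-63864175, minus strand), also a receptor of ephrin-A5, had 49.24, 40.17, 43.59 and 34.24 CPM in CTRL and 40.27, 55.67, 55.43 and 46.24 CPM in PTX. The treated culture was higher in 3 of 4 same-numbered pairs and lower in the pair numbered 1. The log2 fold change was 0.24 (SE 0.14, edgeR adjusted p = 0.197). It passed without CTRL replicate 1 (0.38, adjusted p = 0.0447), without PTX replicate 1 (0.38, adjusted p = 0.0363) and without both (0.45, adjusted p = 0.012).

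Epha7 (ENSMUSG00000028289, chr4:28813066-28967503, plus strand), known for dendrite shape and axon repulsion in the cortex, had 95.11, 75.74, 72.35 and 64.03 CPM in CTRL and 78.31, 64.99, 77.97 and 68.99 CPM in PTX. The groups overlapped over most of their range, and 2 of 4 same-numbered pairs went each way. The log2 fold change was -0.08 (SE 0.12, edgeR adjusted p = 0.647), with a sign that turned when CTRL replicate 1 or PTX replicate 4 was left out. Epha7 is the receptor whose start lies under the highest-scoring L3mbtl1 peak near any of the 10 genes. Its start region, chr4:28812881-28813180 on the plus strand, is shown for that reason. All 300 bases lie under the peak, and capitals mark its CCAAT matches.
Epha7: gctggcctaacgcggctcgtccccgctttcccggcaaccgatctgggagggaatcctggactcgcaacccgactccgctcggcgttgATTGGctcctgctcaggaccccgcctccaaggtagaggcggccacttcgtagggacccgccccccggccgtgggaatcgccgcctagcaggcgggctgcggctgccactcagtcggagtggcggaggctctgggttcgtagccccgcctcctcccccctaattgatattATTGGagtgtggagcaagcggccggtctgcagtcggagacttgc

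Among the EphB genes of the 10, Ephb1 and Ephb6 fell, Ephb3 rose and Ephb2 did not pass the test. Ephb1 (ENSMUSG00000032537, chr9:101922128-102354693, minus strand) acts with Ephb2 and Ephb3 in the formation of dendritic spines. CTRL libraries had 9.02, 9.65, 11.14 and 7.91 CPM and PTX libraries 5.11, 4.54, 6.48 and 6.13 CPM, without overlap. Mean levels went from 9.43 ± 1.35 to 5.56 ± 0.897 CPM (SD, n = 4), a log2 fold change of -0.76 (SE 0.17, 1.70-fold lower, edgeR adjusted p = 0.00492). An L3mbtl1 peak also covers the start of Ephb1, under 179 of the 300 bases of its start region, chr9:102354644-102354943 on the minus strand. Capitals mark CCAAT and TGACG matches.
Ephb1: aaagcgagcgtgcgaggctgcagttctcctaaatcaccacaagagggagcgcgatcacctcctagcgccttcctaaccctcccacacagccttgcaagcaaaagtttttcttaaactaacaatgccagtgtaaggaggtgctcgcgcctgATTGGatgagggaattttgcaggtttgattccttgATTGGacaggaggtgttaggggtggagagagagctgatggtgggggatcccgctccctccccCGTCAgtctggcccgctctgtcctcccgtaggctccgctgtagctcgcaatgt

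Ephb6 (ENSMUSG00000029869, chr6:41603834-41620509, plus strand) carries a kinase domain without catalytic activity. It had 25.12, 32.04, 29.66 and 29.2 CPM in CTRL and 14.81, 25.42, 16.68 and 18.33 CPM in PTX. PTX library 2 lay just above CTRL library 1, and every treated culture lay below the control of its own number. On average it went from 29.0 ± 2.87 to 18.8 ± 4.64 CPM (SD, n = 4), a log2 fold change of -0.62 (SE 0.16, 1.54-fold lower, edgeR adjusted p = 0.0119).

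Ephb3 (ENSMUSG00000005958, chr16:21204620-21223309, plus strand) had 6.25, 6.51, 7.14 and 6.99 CPM in CTRL and 11.74, 10.44, 11.72 and 11.89 CPM in PTX. Its spread within groups was small beside the distance between them. Mean levels went from 6.72 ± 0.415 to 11.4 ± 0.678 CPM (SD, n = 4), a log2 fold change of 0.77 (SE 0.12, 1.70-fold higher, edgeR adjusted p = 0.000599). Ephb2 (ENSMUSG00000028664, chr4:136647536-136836326, minus strand), which binds NMDA receptors at synapses, had 43.16, 46.34, 63.02 and 62.66 CPM in CTRL and 36.57, 52.43, 57.91 and 60.25 CPM in PTX. Library 1 was the lowest of each group, and the groups covered nearly the same range. Its log2 fold change was -0.05 (SE 0.18, edgeR adjusted p = 0.84), and the sign turned when CTRL replicate 3, CTRL replicate 4 or PTX replicate 1 was left out. Ephb2 and Epha8 are neighbours on chromosome 4, 93092 bp apart with the complement genes C1qa, C1qb and C1qc between them. The former gave no call where the latter fell 3.87-fold, and the difference between them was not tested.

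The make-up of the receptor counts differed between the groups, mainly in Epha4 and Epha5. Of the counts assigned to the 10 genes, Epha4 held 58.55 ± 1.88% in CTRL and 34.3 ± 1.3% in PTX (SD, n = 4). Epha5 held 14.59 ± 1.43% in CTRL and 33.39 ± 3.39% in PTX. In PTX libraries 1 and 3 the Epha5 share, 34.65% and 37.03%, was close to or above that of Epha4, 35.06% and 32.41%. In every CTRL library Epha4 held at least 56.75% and Epha5 at most 15.76%. The summed level of the 6 EphA members went from 913.7 ± 93.6 to 654.8 ± 73.7 CPM, without overlap. The mean of Epha4 alone went from 592.9 to 254 CPM, a larger drop than that of the sum. Epha6 and Epha8 also fell, Epha5 rose from 147.9 to 249.6 CPM, and Epha3 and Epha7 did not pass the test. The EphA sum thus follows Epha4 and does not show a fall of the class as a whole. The summed level of the 4 EphB members went from 98.95 ± 12.4 to 87.61 ± 13 CPM, with overlap. Shares within a library depend on each other, so a fall of Epha4 raises the shares of the other genes. The Epha7 share went from 7.556% to 9.785%, while its mean level went from 76.81 to 72.57 CPM. All these shares and sums follow counts, which grow with transcript length, and they describe the libraries without a test.

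**Figure D2:**
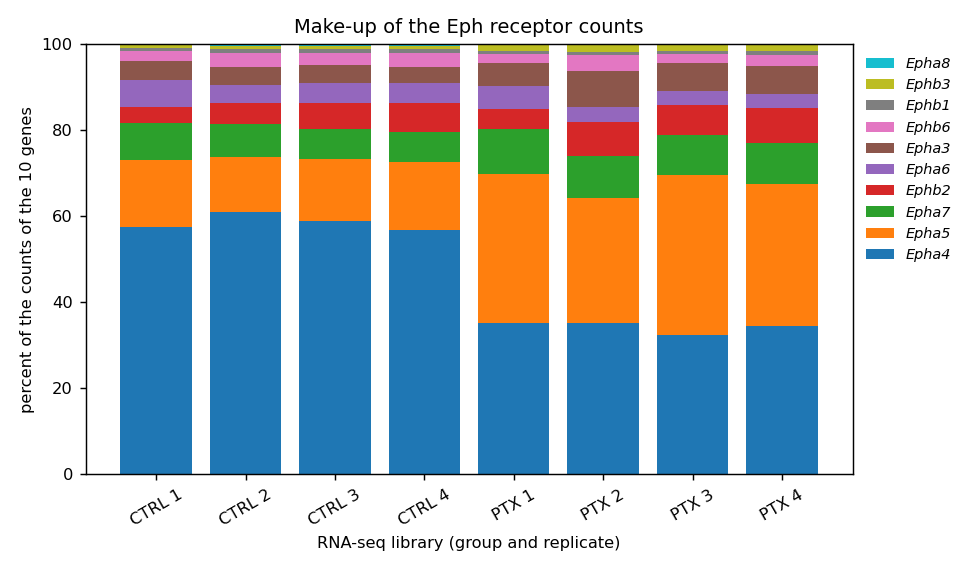
Percent of the counts of the 10 Eph receptors held by each gene, as stacked bars for the 4 CTRL and 4 PTX libraries. Epha4 takes 56.75% or more of each CTRL bar and 35.26% or less of each PTX bar, and Epha5 28.98% or more of each PTX bar.

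Other tested genes had nearly the same profile over the 8 libraries as Epha4 and as Ephb3, the called receptors with the smallest p and the largest rise. Likeness was the mean absolute difference of log2 CPM, each gene centred on its own mean. For Epha4 the nearest genes were Ssbp2 (0.035), Ppp3ca, the catalytic subunit of calcineurin (0.0609), and Plpp3, a lipid phosphatase (0.0611), where the median of all genes was 0.614. For Ephb3 they were Ankrd9 (0.0343), Mia2 (0.0452) and Zfp516 (0.0455), where the median was 0.451. Ppp3ca went from 1027 ± 151 to 442.7 ± 13 CPM (SD, n = 4), and its log2 fold change of -1.21 (SE 0.11) lay beside the -1.22 of Epha4. These genes were chosen from all genes for their likeness, so their values are a description.

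Of the Eph receptors outside the 10, Epha2 and Epha10 rose and neither fell. Epha2 had 1.59, 3.14, 2.45 and 2.22 CPM in CTRL and 5.43, 6.84, 8.14 and 6.98 CPM in PTX. Its log2 fold change was 1.54 (SE 0.23, 2.90-fold higher, edgeR adjusted p = 0.000485). Epha10, whose kinase domain is inactive as in Ephb6, had 6.96 to 9.08 CPM in CTRL and 15.05 to 27.51 CPM in PTX, with a log2 fold change of 1.35 (SE 0.19, 2.56-fold higher, edgeR adjusted p = 0.000346). Ephb4, best known in blood vessels, had 6.31 to 7.58 CPM in CTRL and 7.79 to 10.92 CPM in PTX. Its groups did not overlap, but its log2 fold change of 0.33 (SE 0.15) missed the threshold (edgeR adjusted p = 0.116) and passed with the replicate number as a block (adjusted p = 0.0381). Epha1 had 4 counts over all CTRL libraries and 6 over all PTX libraries and was not tested.

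Of 8 ephrins, the ligands, Efna5 rose, Efna2, Efna3 and Efnb3 fell, and 4 did not pass the test. Over all tested genes 19% were higher and 20.1% lower. The median log2 fold change of the ephrins was 0.02, beside -0.03 for all tested genes. With the replicate number as a block 2 of the 8 ephrins passed as higher, beside 4097 of all 15959 tested genes. Efna1 was the one added (edgeR adjusted p = 0.0499, against 0.355 without the block).

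Efna5, a ligand of Epha3, Epha4 and Epha5, had 2.77, 3.03, 2.45 and 2.88 CPM in CTRL and 8.23, 8.85, 11.1 and 9.77 CPM in PTX. The lowest treated culture was well above the highest control. The log2 fold change was 1.77 (SE 0.16, 3.41-fold higher, edgeR adjusted p = 2.07e-05), larger in size than that of any receptor that rose. Efna3, the astrocytic ligand of Epha4, had 28.83, 25.58, 28.41 and 23.06 CPM in CTRL and 15.45, 19.05, 12.27 and 11.77 CPM in PTX. It fell 1.81-fold (log2 fold change -0.85, SE 0.16, edgeR adjusted p = 0.00195). Efna2 had 3.07 to 4.54 CPM in CTRL and 1.03 to 1.86 CPM in PTX, and it fell 2.81-fold (log2 fold change -1.49, SE 0.24, edgeR adjusted p = 0.000732).

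Efnb3, a neuronal ligand of EphB receptors and of Epha4, had 80.96, 67.32, 68.16 and 61.09 CPM in CTRL and 36.76, 19.64, 21.23 and 21.54 CPM in PTX. PTX library 1 was the highest of its group and still below all controls. It fell 2.80-fold (log2 fold change -1.48, SE 0.19, edgeR adjusted p = 0.000214). The other B ligands did not pass. Efnb2 went from 76.0 ± 7.00 to 75.5 ± 7.83 CPM (log2 fold change -0.01, SE 0.10) and Efnb1 from 13.5 ± 2.61 to 14.8 ± 2.09 CPM (0.14, SE 0.16). Efna1 and Efna4 had mean levels between 1.48 and 2.21 CPM in each group and did not pass.

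**Figure D3:**
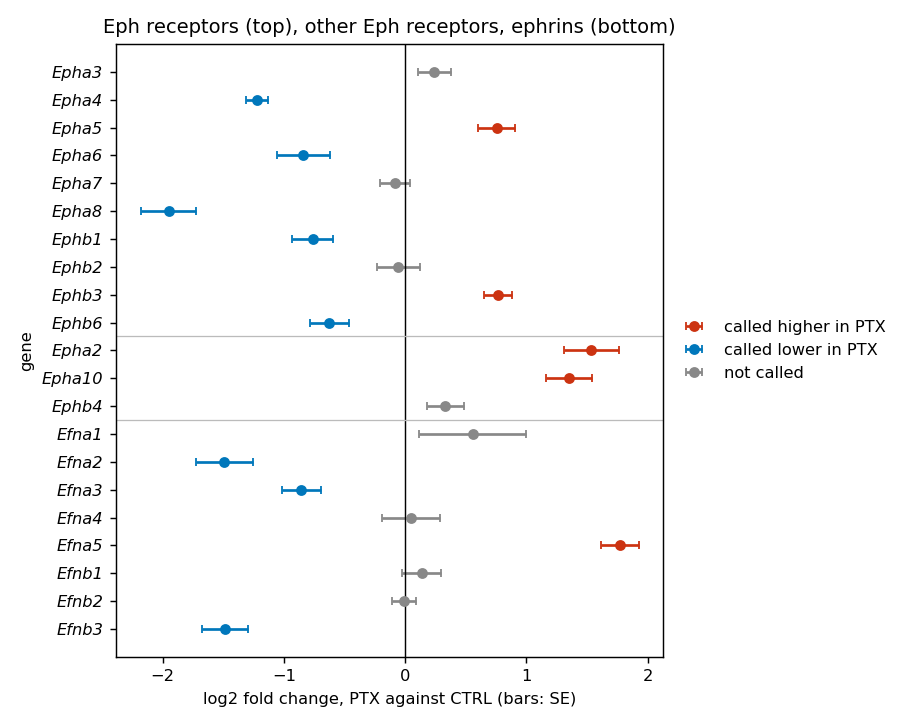
Log2 fold change of PTX against CTRL for the Eph receptors and ephrins, with bars of 1 SE and colours for higher, lower and not called. Epha8 (-1.95) and Efna5 (1.77) mark the ends of the range. Both classes hold genes on both sides of 0.

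The genes that carry Eph signals into the cell were read from a list of 41 partners, of which 39 were tested. Of these, 10 rose, 10 fell and 19 did not pass, beside 19% higher and 20.1% lower over all tested genes. The median log2 fold change of the partners was -0.02, beside -0.03. The chimaerins, Rac GTPase inactivators that act below Epha4, fell. Chn1 had 400.1, 414.1, 351.9 and 279.6 CPM in CTRL and 137, 137.5, 107.4 and 101.3 CPM in PTX (log2 fold change -1.58, SE 0.15, 2.99-fold lower, edgeR adjusted p = 3.07e-05). Chn2 went from 28.9 ± 4.33 to 9.17 ± 1.07 CPM (SD, n = 4), 3.15-fold lower (edgeR adjusted p = 1.42e-05). Tiam1, a Rac activator that binds Ephb2, went from 105.5 ± 6.98 to 61.7 ± 4.8 CPM (SD, n = 4), 1.71-fold lower (edgeR adjusted p = 8.25e-05).

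Rock2, a kinase activated by RhoA that tightens the actomyosin cytoskeleton, rose. It had 356.4, 350, 330.7 and 332.5 CPM in CTRL and 877.4, 909, 1015 and 918 CPM in PTX. The spread within either group was far below the distance between them (log2 fold change 1.44, SE 0.08, 2.72-fold higher, edgeR adjusted p = 1.64e-06). Rin1, a Rab5 exchange factor that takes part in the uptake of Epha4, went from 6.10 ± 1.30 to 19.3 ± 4.29 CPM (SD, n = 4), 3.15-fold higher (edgeR adjusted p = 0.00012). Sdcbp, the PDZ scaffold syntenin that binds ephrin-B tails, went from 259.6 ± 16.7 to 453.1 ± 31.3 CPM (SD, n = 4), 1.75-fold higher (edgeR adjusted p = 5.36e-05).

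Further partners are named after their values were seen. Ngef, the RhoA exchange factor ephexin-1 that binds Epha4, went from 37.3 ± 5.30 to 61.7 ± 11.3 CPM (SD, n = 4), 1.65-fold higher (edgeR adjusted p = 0.0036). Cdk5, a kinase that phosphorylates ephexin-1, went from 60.8 ± 8.64 to 34.0 ± 5.56 CPM (SD, n = 4), 1.79-fold lower (edgeR adjusted p = 0.000958). Kalrn, an activator of Rac in spines that acts below EphB receptors, went from 397.5 ± 21.7 to 224.1 ± 28.5 CPM (SD, n = 4), 1.77-fold lower (edgeR adjusted p = 0.000134). Called changes of Abl2, Anks1b and Grip2 were each lost under at least 1 alternative.

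**Figure D4:**
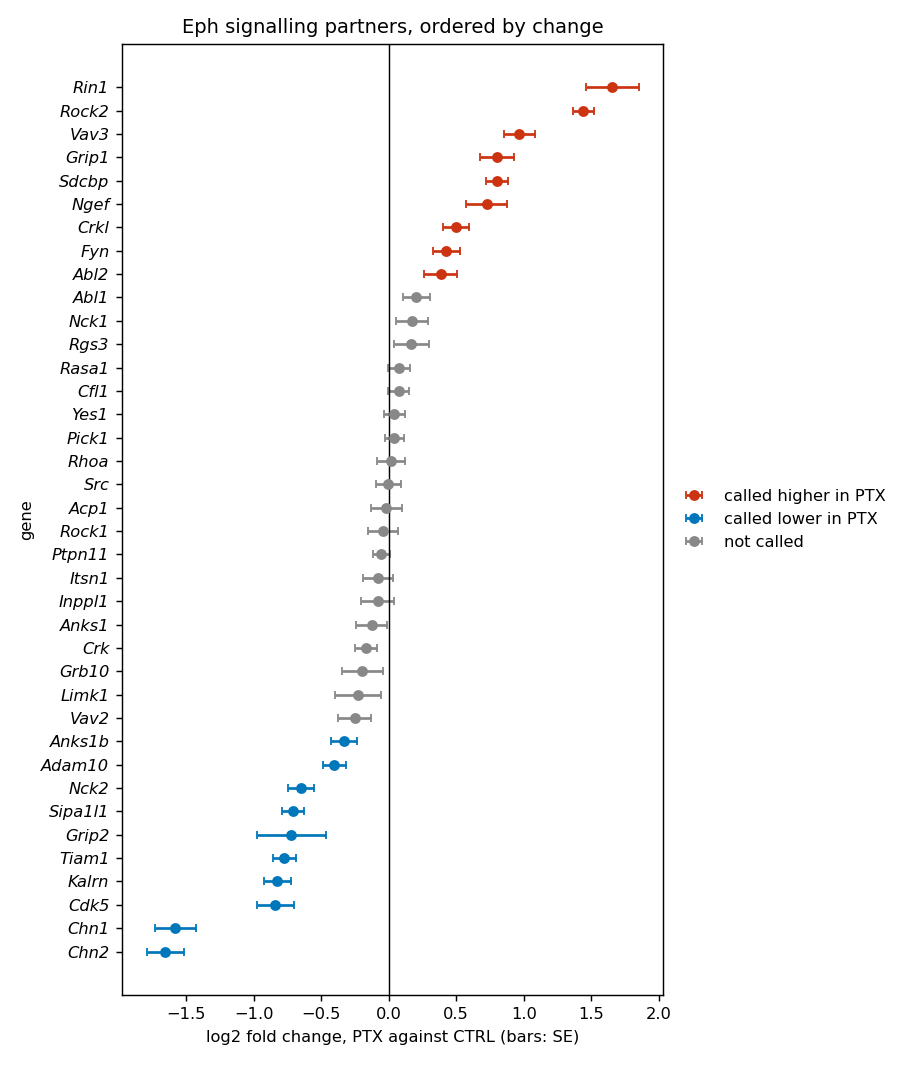
Log2 fold change of PTX against CTRL for the tested Eph signalling partners but 1, with bars of 1 SE and colours for higher, lower and not called. Rin1 and Rock2 lie farthest to the right, and Chn2 and Chn1 farthest to the left.

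L3mbtl1 peaks were counted within 2000 bp of either end of a gene. They lay there for 4 of the 10 receptors (Epha3, Epha6, Epha7 and Ephb1), with 5 peaks in all, beside 26.4% of the tested protein-coding genes with a position. The peaks come from another tissue and age than the cultures, so the numbers only place both on the same genes. The other 6 receptors, Epha4 and Epha5 among them, had no peak near an end or in the gene body. Of the 3 among these 10 receptors with a peak near the start 1 changed with picrotoxin, and of the 7 without 6 did. Over all tested genes 39.2% did, and the counts of receptors are too small for a reading.

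Epha7 had a pair of peaks. One, chr4:28812341-28813499, runs from -725 to 433 bp relative to the gene start, has the authors' score of 15.3 and ranks 709 of 4677. The other, chr4:28814034-28816258, lies within the first part of the gene, from 968 to 3192 bp, with a score of 12.7 and rank 1374. The peak of Ephb1, chr9:102353852-102354822, covers the start, from -129 to 841 bp, with a score of 8.98 and rank 3722. The peak of Epha3, chr16:63863241-63864082, lies 93 to 934 bp inside the gene, with a score of 9.37 and rank 3322. Near Epha6 the peak, chr16:59638109-59639859, lies 1574 bp past the far end of the gene, with a score of 10.4. The same peak is within 2000 bp of Arl6 and of 4930547E14Rik, so it cannot be tied to Epha6. In the higher-scoring part of the list, at or above the median of 10.69, only the 2 peaks of Epha7 remained for the 10 receptors. Outside the 10, Epha10 had a peak, chr4:124881334-124881701, from -196 to 171 bp relative to the gene start, with a score of 12.0. That peak lies 84 bp from the nearest RefSeq transcription start and is also within 2000 bp of an end of Maneal.

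Among the ligands, Efna3 had 1 peak, Efnb2 2 and Efna5 3, and the other 5 ephrins 0. The Efna3 peak, chr3:89322102-89323239, covers the start with a score of 13.9. One Efnb2 peak, chr8:8660895-8661988, also covers the start, with a score of 14.9, and the second, chr8:8658931-8660753, lies 489 to 2311 bp inside the gene with a score of 12.7. The Efna5 peaks lie on both sides of the start, at chr17:62883290-62884436, chr17:62881826-62883059 and chr17:62878916-62880857, with scores of 14.2, 9.81 and 9.40, and none covers it. Of the partners, 16 of 41 had a peak, beside 26.4% of the coding genes above. Of those 16, 8 changed with picrotoxin, and of the other 23 tested partners 12 did, beside 39.2% of all tested genes.

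**Figure D5:**
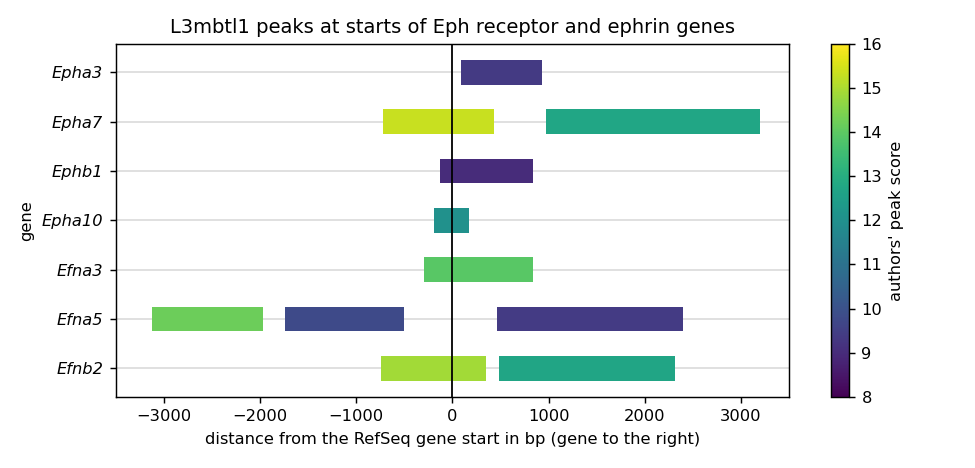
L3mbtl1 peaks near the starts of Eph receptor and ephrin genes, drawn as bars by distance from the RefSeq gene start in bp, with the gene to the right and the colour for the authors' score. Peaks cover the gene starts of Epha7, Ephb1, Efna3, Efnb2 and Epha10, a receptor outside the 10. Those of Epha3 and Efna5 lie beside the start.

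The start regions of the receptors were richer in G and C than most promoters. The 11 windows of the 10 genes held 55.7% to 84.3% G and C and 14 to 56 CpG, where the quartiles of all 32851 promoters were 45.7% and 61.7%, and 3 and 20 CpG. The full cyclic AMP response element TGACGTCA, the AP-1 site TGANTCA and TATAAA were in none of the 11 windows, beside 1.79%, 7.81% and 13.6% of all promoters. The core TGACG, held by 20.8% of all promoters, was in the windows of Epha4, Ephb1 and Ephb3. The last of these, chr16:21204545-21204844 on the plus strand, is printed as that of the EphB receptor that rose, with TGACG in capitals.
Ephb3: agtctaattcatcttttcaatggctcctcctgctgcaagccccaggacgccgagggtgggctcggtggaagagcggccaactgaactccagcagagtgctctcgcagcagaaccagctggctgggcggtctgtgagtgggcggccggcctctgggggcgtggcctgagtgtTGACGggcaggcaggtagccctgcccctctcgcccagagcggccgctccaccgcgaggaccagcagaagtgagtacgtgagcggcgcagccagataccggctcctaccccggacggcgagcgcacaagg
CCAAT, held by 37.4% of all promoters, was in the windows of Epha4, Epha6, Epha7, Epha8, Ephb1 and Ephb2. GCGNGGGCG, held by 5.55%, was in that of Epha8. Both strands were searched, and every TGACGTCA also counts as a TGACG. A match is a string of letters and not a bound site.

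Overlapping annotated genes may limit some values. Epha3, Epha4, Epha5, Epha6, Ephb1 and Ephb2 each overlap at least 1 other annotated gene, and Ephb1 overlaps 5. The ligands Efna3 and Efna5 overlap 2 each. Whole gene spans were compared and not exons, so an overlap need not affect the counts. Reads of bases that a pair shares cannot be told apart where the counting did not use strand. The sources used here do not give the strand setting. Epha7, Epha8, Ephb3 and Ephb6 overlap none.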

How the data were processed

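Raw read counts per Ensembl gene, in 1 table per library, were deposited by the authors for 8 RNA-seq libraries made from RNA depleted of ribosomal RNA, per the labels' protocols. The submitters' processing notes name Bowtie2 2.2.4, TopHat2 2.0.9, CASAVA 1.8, HTSeq 0.6.1 and the build mm10, without their roles. For the strand setting and the gene annotation, the version is not given in the sources used here. Of every file, 5 summary lines were left out. They put 19.9% to 26.77% of the counted alignments at no counted feature and 15.21% to 20.47% at non-unique positions. Of 43629 identifiers 42462 had a symbol. No library was a copy of another of its own group (smallest chi-square per degree of freedom 10.3), and pairs across groups were not compared in this way.

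PTX was compared with CTRL with edgeR 4.0.16 in R 4.3.3 (limma 3.58.1; TMM, filterByExpr, quasi-likelihood test, group as the only term), with Benjamini-Hochberg adjustment over 15959 genes. The SE is the log2 fold change divided by the square root of F. The procedure was tested on simulated data. Deviations from the group means were correlated between the groups, at 0.153 to 0.77 for same-numbered libraries and -0.501 to 0.209 for other pairs. Of the 4 CTRL libraries, 3 correlated best with the PTX library of their own number. CTRL library 3 did not, with 0.153 for PTX library 3, 0.207 for PTX library 2 and 0.209 for PTX library 4. The numbers in the sample titles were taken to pair the cultures, which these correlations do not show for number 3. Alternatives were DESeq2 1.42.0, no TMM, no filter, a replicate block, each library left out in turn and both libraries numbered 1 left out.

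Peaks with a score each were deposited by the authors as 1 list for all 6 ChIP-seq samples, described as the outcome of a reproducibility filter (IDR). What the score (8.17 to 52.24) stands for is, like the peak caller, not given in the sources used here. An overlap of at least 1 bp with 2000 bp on either side of a gene end counted. Gene positions and start regions are those of RefSeq on GRCm38.p6, the build called mm10. All 10 receptors matched by symbol. Transcript lengths were not used here.

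The receptors and the lists were chosen with earlier results of these data known. All receptors and ephrins are named. Of the partners, the 3 with the smallest p in each direction and those changed at least 2-fold were to be named, and for Epha4 and Ephb3 the 3 genes of most alike profile. One partner is counted but otherwise not reported here.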

Additional observations from a re-analysis of the deposited data

Results flagged for a closer look

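Among 42 groups of 4 libraries (Eph receptors and ephrins, CTRL and PTX), 3 held a library far from the others by Dixon's 95% limit on the gap to the nearest library over the group's range. Chance passes that limit in about 1 group in 20. Ephb3 in PTX replicate 2 was 10.44 CPM where the other PTX libraries had 11.72 to 11.89. Ephb4 in PTX replicate 4 was 10.92 CPM where the others had 7.79 to 8.14. Efnb3 in PTX replicate 1 was 36.76 CPM where the others had 19.64 to 21.54. The Ephb3 and Efnb3 libraries still lay on the same side of all CTRL libraries as the rest of their group.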

How the results depend on the processing

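Under all 13 alternatives the calls of 6 receptors (Epha4, Epha5, Epha8, Ephb1, Ephb3 and Ephb6) and of the 4 called ephrins kept their direction and their side of the threshold. Epha6 lost its call without PTX replicate 3 or 4. Among the partners 16 of 20 calls held under all 13. The replicate block raised the ephrins called higher to 2, added Ephb4 and Efna1, and left every receptor call of the 10 as it was. It raised the calls over all genes from 6248 to 8820. Signs turned for uncalled genes, and the cause was not tested. Leaving out 1 library moved the log2 fold change of Epha7 between -0.1631 and 0.0903, of Ephb2 between -0.1416 and 0.1252, of Efna4 between -0.0260 and 0.1777 and of Efnb2 between -0.0400 and 0.0937. Without both libraries numbered 1 it was 0.0381 for Epha7, 0.0247 for Ephb2 and 0.0381 for Efnb2. Without TMM it was -0.0072 for Efna4, and with DESeq2 0.0222 for Efnb2. Among the peaks at or above the median score, the receptors had 2 and the partners 13 near their ends, since fewer peaks were counted. Precision is limited by 4 cultures per group and, for Epha8, Efna1, Efna2, Efna4 and Epha2, by few counts.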
